A study of Rattus norvegicus with 15 samples.

Results

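The vitamin D receptor and the genes that activate, break down and carry vitamin D were followed through multifidus muscle RNA of rats with and without spinal surgery. The members were the 10 genes whose symbols match a given list of the receptor, its retinoid X receptor partners, the activating and inactivating enzymes and the transport proteins, out of 37991 genes in the table. The receptor is a transcription factor in the nucleus that binds DNA as a pair with a retinoid X receptor once the hormone calcitriol is bound. Cholecalciferol, the form that was injected, becomes that hormone only after hydroxylation by cytochrome P450 enzymes, mainly in liver and kidney, and the receptor in turn switches on the enzyme that degrades the hormone. In adult skeletal muscle the receptor is known to be scarce.

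Male wild type Sprague Dawley rats aged 12 weeks made up 5 groups, and paired-end RNA sequencing gave 15 libraries. The operated animals had a hemilaminectomy with ligation of the left L5 spinal nerve, so injury to muscle and loss of nerve supply came together. Control rats were uninjured (2 libraries), and Surgery rats were operated and untreated (2 libraries). The pMT rats received mitochondria isolated from human plasma into the left paraspinal muscle after surgery, 25 µg in 100 µL per site and 50 µg in all (4 libraries). The VitD rats received 150 µg of cholecalciferol per site after surgery, 300 µg in all (3 libraries), and the pMT/VitD rats received both agents at those doses (4 libraries). In the paper on these data, which describes no VitD group, pMT was injected 2 weeks after surgery and muscle was taken 2 weeks later. No earlier harvest is given, so a change that had passed by then would not be seen. The day of the VitD injections and a group injected with vehicle alone are not given in the sources used here. Total counts per library ranged from 52342134 to 73557878. The labels do not state that each library came from a separate animal, so p-values measure only the spread between these libraries, which may be technical. The muscle fibre markers were all detected (10 of 10), with a summed level of 91800 to 129000 TPM and Acta1, skeletal muscle actin, as the most abundant.

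Libraries within a group were not alike, though the 2 Surgery libraries were the closest pair. Results that turn on pMT replicate 4 or pMT/VitD replicate 4 are also given without both. Between these libraries, levels are given as CPM, counts divided by the library total and scaled with TMM factors that correct for the makeup of each library. Between genes, levels are given as TPM, which also accounts for gene length. Of the 10 members, 6 had counts in every library and passed the filter on low counts, 1 had a few counts in some libraries, and 3 had 0 counts in every library.

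On the TPM scale, which allows genes to be ordered, Rxrg was the highest member with 48.8 ± 11.2 TPM (SD, n = 15). Rxra followed at 21.6 ± 11.7 TPM, Cyp27a1 at 15.8 ± 2.37 TPM and Rxrb at 13.3 ± 2.75 TPM (SD, n = 15 each), and the ranges of these 3 genes overlapped. Far below them were Vdr at 0.326 ± 0.125 TPM and Cyp2r1 at 0.147 ± 0.0522 TPM (SD, n = 15 each). Cyp27b1 was the lowest detected member, with 0 to 0.0533 TPM. The receptor was thus present at a small fraction of the level of each of its partners in these libraries, in every group.

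The first question was whether VitD changed any member. In VitD against surgery, 0 of the 6 tested members passed an adjusted p of 0.05 in edgeR's quasi-likelihood test with Benjamini-Hochberg adjustment over all 17201 genes tested, where 0% of all genes passed. The count was also 0 of 6 in pMT/VitD against pMT, beside 0% of all genes. The average of these 2 effects, which sets 7 libraries with VitD against 6 operated libraries without it, likewise gave 0 of 6 beside 0%, and so did the test of whether the VitD effect differed with pMT (0 of 6 beside 0%). At an unadjusted p under 0.05, 0 of 6 members passed in each of these 4 tests. In the same order 139, 1737, 262 and 888 of 17201 genes did. DESeq2 called 0 members in all 4, beside 93 of 17201 genes in pMT/VitD against pMT and 0 genes in the others. edgeR's exactTest called 0 members in both pairwise tests, beside 6 of 16746 genes in VitD against surgery and 0 in pMT/VitD against pMT. limma voom with sample quality weights called 1 member, Rxra, in pMT/VitD against pMT, with a log2 difference of -0.78 (adjusted p = 0.0397), and 0 in the other 3. Of all 17201 genes that tool called 6595 in the same comparison, 419 in VitD against surgery, 4229 for the average effect and 5393 for the difference with pMT. For pMT/VitD against control 0 of 6 members passed, with 0% of all genes called. An unadjusted p under 0.05 was found there for 0 of the 6, beside 496 of 17201 genes. In that comparison DESeq2, exactTest and limma voom each called 0 members, beside 1 of 17201, 4 of 16061 and 1822 of 17201 genes. Comparisons named here share libraries wherever they share a group, so they are not independent of each other.

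Vdr (gene 24873), the receptor itself, was counted 37 and 33 times in the Control libraries and 33 and 25 times in the Surgery libraries. In the VitD libraries its counts were 17, 25 and 34. They were 38, 43, 46 and 14 with pMT and 26, 20, 32 and 44 with pMT/VitD. The lowest count was in pMT replicate 4, and on the CPM scale both Control libraries lay above the Surgery and VitD libraries while the other groups overlapped. As CPM, the level was 0.335 ± 0.124 (SD, n = 3) in VitD and 0.384 ± 0.0604 (SD, n = 2) in Surgery, a log2 fold change of -0.20 (95% interval -1.16 to 0.75). In pMT/VitD it was 0.619 ± 0.205 CPM and in pMT 0.521 ± 0.179 CPM (SD, n = 4 each), a log2 fold change of 0.24 (95% interval -0.49 to 0.97). Without replicate 4 of both groups this value was -0.17. The average VitD effect on Vdr was 0.019 on the log2 scale, with a 95% interval of -0.59 to 0.63. The largest Vdr difference was 0.89 in pMT/VitD against VitD (95% interval 0.076 to 1.70, adjusted p = 0.108 in the quasi-likelihood test, 0.0794 to 0.305 over the 11 alternatives). For VitD against pMT it was -0.65 (adjusted p = 0.322 in the same test, 0.0111 to 0.471 over the alternatives), and limma voom called it there, beside 8538 of 17201 genes. Without each library in turn Vdr ranged from -0.90 to -0.37 in VitD against pMT and from 0.61 to 1.14 in pMT/VitD against VitD.

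The retinoid X receptors pair with the vitamin D receptor and with other nuclear receptors. Rxrg (gene 83574), an isotype that skeletal muscle is known to express, measured 91.5 and 84.5 CPM in the Control libraries and 59.2 and 57.5 CPM in the Surgery libraries. In the VitD libraries it was 24.9, 56.0 and 67.7 CPM. With pMT it was 82.0, 80.6, 79.2 and 76.9 CPM, and with pMT/VitD 88.8, 93.8, 91.3 and 91.9 CPM. On this scale all libraries of Control, pMT and pMT/VitD lay above all libraries of Surgery and VitD, and VitD replicate 1 was the lowest of the 15. With library size only they overlapped, with pMT replicate 4 at 65.9 CPM, Surgery replicate 1 at 66.1 CPM and VitD replicate 3 at 73.5 CPM, and as TPM pMT replicate 4 (38.1 TPM) and pMT/VitD replicates 1 to 3 (44.6, 49.6 and 49.9 TPM) lay below VitD replicate 3 (50.9 TPM). Rxrg was higher in pMT/VitD against VitD, a comparison added after the data were seen, by 0.88 on the log2 scale (95% interval 0.40 to 1.37, adjusted p = 0.0134 in the quasi-likelihood test). There 2 of the 6 tested members passed, Rxrg and Cyp27a1, while 21.9% of all genes were called. Without VitD replicate 1 the difference was 0.56 (adjusted p = 0.00279). It missed the threshold with library size only (0.56, adjusted p = 0.0603) and in a fit of only those groups (0.89, adjusted p = 0.0711), and adjusted p-values over the 11 alternatives that left out no single library ran from 4.65e-05 to 0.0711. With TMM factors the pMT/VitD libraries also lay above the pMT libraries, but the difference of 0.20 (95% interval -0.24 to 0.64) did not pass in that test. With library size only it was 0.014, and the libraries overlapped (75.4 to 90.3 CPM with pMT/VitD and 65.9 to 86.3 CPM with pMT).

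In the other comparisons Rxrg did not pass in the quasi-likelihood test on all 15 libraries. In VitD against control its log2 fold change was -0.83 (95% interval -1.38 to -0.27, adjusted p = 0.0618), and in VitD against pMT it was -0.69 (95% interval -1.16 to -0.21, adjusted p = 0.0747). Both were called by DESeq2, beside 2471 and 2213 of all 17201 genes. Over the 11 alternatives that left out no single library, the adjusted p ran from 0.000403 to 0.216 in VitD against control and from 6.77e-05 to 0.218 in VitD against pMT. In the quasi-likelihood test, Benjamini-Hochberg adjusted, Rxrg in VitD against control was -0.51 without VitD replicate 1 (adjusted p = 0.021) and -1.12 without VitD replicate 3 (adjusted p = 0.0114). For VitD against pMT it was -0.36 without VitD replicate 1 (adjusted p = 0.0513) and -0.98 without VitD replicate 3 (adjusted p = 0.0126, both from the quasi-likelihood test). In surgery against control Rxrg was at -0.59 (adjusted p = 0.318), in pMT/VitD against surgery at 0.65 (adjusted p = 0.135) and in pMT against surgery at 0.45 (adjusted p = 0.467, all from the quasi-likelihood test). A fit of only the groups compared, exactTest and limma voom each called it in these 3 comparisons, and over the 11 alternatives the adjusted p ran from 3.95e-13 to 0.533, from 0.000132 to 0.38 and from 0.00177 to 0.735. Of all genes those fits called, in that order, 5289 of 16316, 5923 of 16316 and 4902 of 17201 in surgery against control. In pMT/VitD against surgery they called 836 of 16317, 1763 of 16317 and 6777 of 17201. In pMT against surgery they called 520 of 16609, 1180 of 16609 and 6457 of 17201.

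Rxra (gene 25271), the widely expressed isotype, was the most variable of the 3 partners across the libraries. It measured 33.1 and 26.3 CPM in the Control libraries and 17.1 and 17.2 CPM in the Surgery libraries. In the VitD libraries it was 6.42, 16.9 and 20.4 CPM. With pMT it was 20.8, 28.2, 37.8 and 9.30 CPM, and with pMT/VitD 13.5, 16.7, 15.7 and 42.8 CPM. Replicate 4 was the lowest of the pMT group and the highest of the pMT/VitD group, so the groups overlapped. The log2 fold change in pMT/VitD against pMT was -0.12 (95% interval -1.08 to 0.85), and without replicate 4 of both groups it was -0.91 (95% interval -1.65 to -0.18, adjusted p = 0.079 in the quasi-likelihood test, Benjamini-Hochberg adjusted). In that smaller fit 0 of 6 members passed, where 18.3% of all genes were called. The test of whether the VitD effect differed with pMT also gave 0 of 6 there, beside 325 of 17182 genes. In VitD against surgery the log2 fold change of Rxra was -0.24 (95% interval -1.48 to 1.01). Without VitD replicate 1 it was 0.12, and the values of Vdr and Rxrg also changed sign, to 0.072 and 0.085. Rxra was at -1.03 in VitD against control (adjusted p = 0.276 in the quasi-likelihood test, 0.0305 to 0.438 over the 11 alternatives), at -0.73 in VitD against pMT (0.404 in that test, 0.00912 to 0.529) and at 0.49 in pMT against surgery (0.767 in that test, 0.0397 to 0.952). limma voom called it in these 3, beside 6436, 8538 and 6457 of 17201 genes. Without each library in turn Rxra ranged from -1.355 to -0.674, from -1.05 to -0.37 and from 0.185 to 0.758 in the same order. In surgery against control it was at -0.80 (adjusted p = 0.564 in the quasi-likelihood test, 3.58e-10 to 0.695 over the alternatives), called by exactTest beside 5923 of 16316 genes and by a fit of only those groups beside 5289 of 16316.

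Rxrb (gene 361801), the third isotype, ranged from 18.8 CPM in VitD replicate 1 to 32.4 CPM in pMT/VitD replicate 4. Its average VitD effect was -0.083 on the log2 scale (95% interval -0.30 to 0.13), and it passed in no comparison of the quasi-likelihood fit to all 15 libraries. In pMT/VitD against VitD its log2 fold change was 0.30 (95% interval 0.022 to 0.59, adjusted p = 0.112 in that test), and it passed without VitD replicate 3 (0.45, adjusted p = 0.0315), with the gene length trend removed (0.43) and in limma voom (0.21). Of all genes these fits called 3854 of 17152, 4632 of 17201 and 8382 of 17201. Without each of the 7 libraries in turn the log2 fold change ranged from 0.16 to 0.45, and 1 of these fits called Rxrb. The log2 fold change was -0.024 on library size alone, and over the 11 alternatives the adjusted p ran from 0.016 to 0.931. limma voom also called Rxrb in VitD against control and VitD against pMT, beside 6436 and 8538 of 17201 genes. Of the summed TPM of the 3 partners, Rxrg made up 50.2% to 71.6% per library and Rxra 12.9% to 35.5%, and Rxrb averaged 16.5%. The Rxra share was 12.9% in pMT replicate 4 and 35.5% in pMT/VitD replicate 4, the extremes of the 15 libraries together with pMT replicate 3 at 35.5%.

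**Figure D1:**
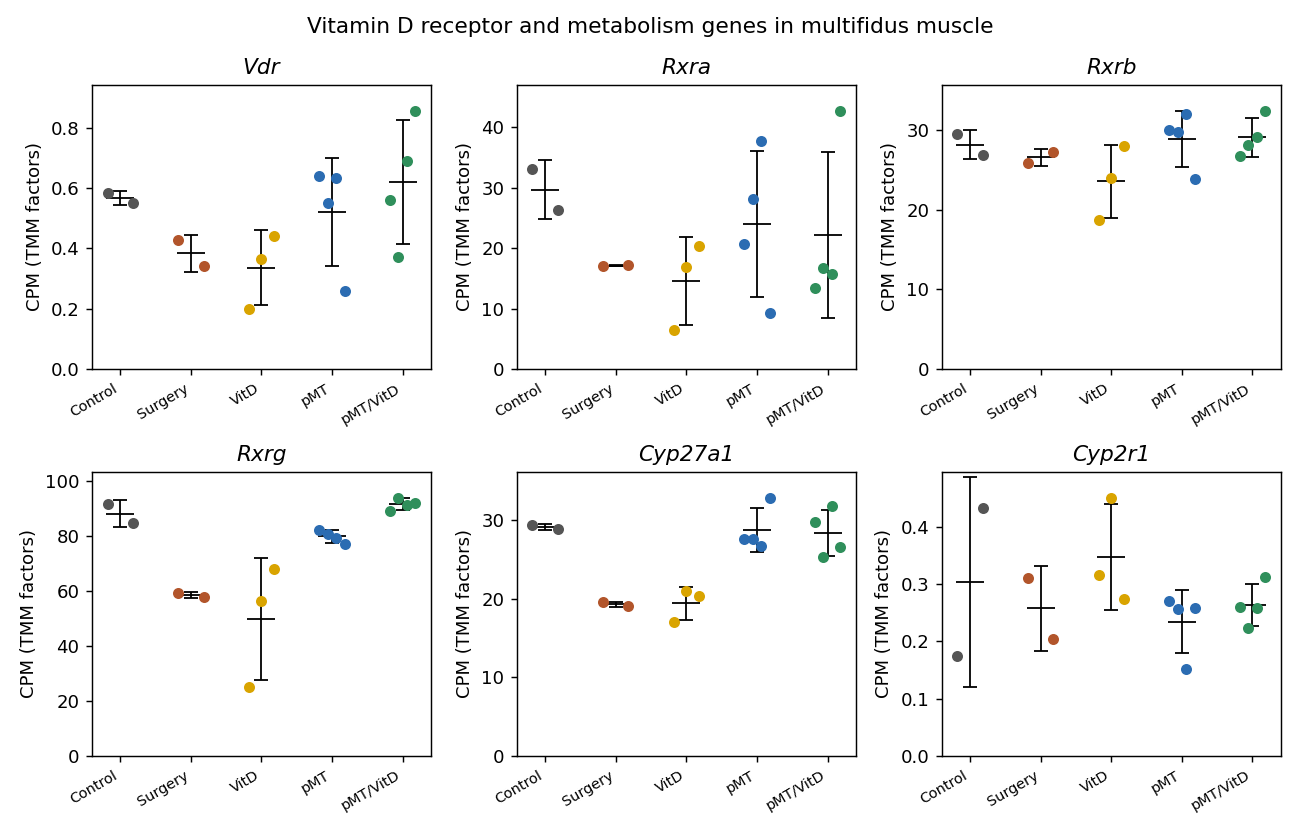
Level of the 6 tested members in each library, as CPM with TMM factors on a linear axis from 0, by group; points are libraries, horizontal bars group means and error bars 1 SD. Cyp27a1 and Rxrg separate Surgery and VitD from the other 3 groups, while Vdr, Rxra, Rxrb and Cyp2r1 overlap between most groups.

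Among the enzymes that activate vitamin D, Cyp27a1 differed between groups. Cyp27a1 (gene 301517) is a mitochondrial sterol hydroxylase that can add the hydroxyl group of the first activation step and also acts in bile acid synthesis. It measured 29.3 and 28.8 CPM in the Control libraries and 19.5 and 19.0 CPM in the Surgery libraries. In the VitD libraries it was 17.0, 20.9 and 20.3 CPM. With pMT it was 27.6, 27.6, 26.7 and 32.9 CPM, and with pMT/VitD 29.7, 25.3, 31.8 and 26.6 CPM. Every Surgery and VitD library lay at or below 20.9 CPM and every library of the other 3 groups at or above 25.3 CPM.

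For VitD itself, the estimates for Cyp27a1 lay close to 0. The log2 fold change was 0.010 (95% interval -0.26 to 0.28) in VitD against surgery and -0.016 (95% interval -0.23 to 0.20) in pMT/VitD against pMT. The average VitD effect was -0.00309 on the log2 scale, with a 95% interval of -0.18 to 0.17. This was the narrowest interval among the 6 tested members.

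The differences in Cyp27a1 lay between Surgery or VitD and the other groups. In VitD against control it was the 1 member of 6 that passed, where 8.67% of all genes were called, and it was lower by a log2 fold change of -0.58 (95% interval -0.85 to -0.31, adjusted p = 0.0155). In VitD against pMT it was again 1 of 6 beside 8.1% of all genes, at -0.56 (95% interval -0.79 to -0.33, adjusted p = 0.00639). It was 1 of 6 in pMT/VitD against surgery as well, beside 7.44% of all genes, and higher by 0.56 (95% interval 0.29 to 0.82, adjusted p = 0.0181). It was higher by 0.55 in pMT/VitD against VitD (95% interval 0.32 to 0.78, adjusted p = 0.0036). In surgery against control 0 of 6 members passed beside 1.55% of all genes, with 1 member, Cyp27a1, at an unadjusted p under 0.05 beside 2923 of 17201 genes. Its log2 fold change there was -0.59 (95% interval -0.89 to -0.29, adjusted p = 0.0508), and in that comparison DESeq2 called 1 member beside 1001 of 17201 genes, limma voom 2 beside 4902 of 17201 and exactTest 3 beside 5923 of 16316. All these adjusted p-values come from the quasi-likelihood test. None of these comparisons isolates VitD, and the ones with a common group share its libraries.

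The remaining comparisons were added after the data were seen. In pMT against surgery Cyp27a1 was the 1 member of 6 that passed, beside 1.94% of all genes, at a log2 fold change of 0.57 (95% interval 0.31 to 0.84, adjusted p = 0.0307 in the quasi-likelihood test). In pMT against control 0 of 6 members passed beside 0% of all genes. There 0 members had an unadjusted p under 0.05, beside 528 of 17201 genes. DESeq2, limma voom and exactTest called 0 members in that comparison, beside 0 of 17201, 227 of 17201 and 12 of 16373 genes. The Cyp27a1 difference was then -0.018 (95% interval -0.28 to 0.24).

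Some Cyp27a1 calls were lost with another scaling or without single libraries. With library size only, every difference behind these calls kept its sign but was smaller: -0.30 in VitD against control (adjusted p = 0.0832), 0.23 in pMT/VitD against surgery (adjusted p = 0.155), 0.42 in pMT against surgery (adjusted p = 0.0644) and 0.20 in pMT/VitD against VitD (adjusted p = 0.114). Only VitD against pMT still passed, at -0.40 (adjusted p = 0.0191). That scaling moved the median of all genes to 0.27 in VitD against control, -0.33 in pMT/VitD against surgery, -0.12 in pMT against surgery, -0.34 in pMT/VitD against VitD and 0.14 in VitD against pMT. Relative to the median, the Cyp27a1 differences with library size only were -0.57, 0.55, 0.54, 0.55 and -0.54 in the same order. On library size alone the VitD libraries reached 23.2 CPM and pMT/VitD replicate 2 measured 21.9 CPM, so those groups overlapped. As TPM they overlapped too, with 12.5 to 14.9 TPM in VitD and 12.7 to 17.2 TPM in pMT/VitD. In VitD against control the call was lost without Control replicate 1 (-0.57, adjusted p = 0.139) or Control replicate 2 (-0.59, adjusted p = 0.111), and in a fit of only those groups (-0.56, adjusted p = 0.0767). For pMT/VitD against surgery it was lost without Surgery replicate 1 (0.57, adjusted p = 0.16) or Surgery replicate 2 (0.54, adjusted p = 0.199). In pMT against surgery it was lost without Surgery replicate 1 (0.59, adjusted p = 0.293), Surgery replicate 2 (0.56, adjusted p = 0.33), pMT replicate 1 (0.59, adjusted p = 0.0654), pMT replicate 2 (0.59, adjusted p = 0.0713) or pMT replicate 4 (0.50, adjusted p = 0.0503). With the replicate number as a block, these calls against surgery were also lost (0.51, adjusted p = 0.0912 for pMT/VitD and 0.52, adjusted p = 0.164 for pMT). The log2 differences without a single library or with the block thus stayed near those of the full fit. Calls among all genes fell as well, from 1492 to 13 and 29 in VitD against control without Control replicate 1 or 2, and from 1279 to 129 and 122 in pMT/VitD against surgery without Surgery replicate 1 or 2. The calls in VitD against pMT and pMT/VitD against VitD held without each of the 7 libraries compared. These p-values are from the same quasi-likelihood test. Over the 11 alternatives that left out no single library, other tools included, the adjusted p ran from 0.000101 to 0.0832 in VitD against control, from 4.48e-05 to 0.155 in pMT/VitD against surgery, from 1.24e-05 to 0.164 in pMT against surgery, from 2.06e-05 to 0.114 in pMT/VitD against VitD and from 7.32e-06 to 0.0474 in VitD against pMT.

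**Figure D2:**
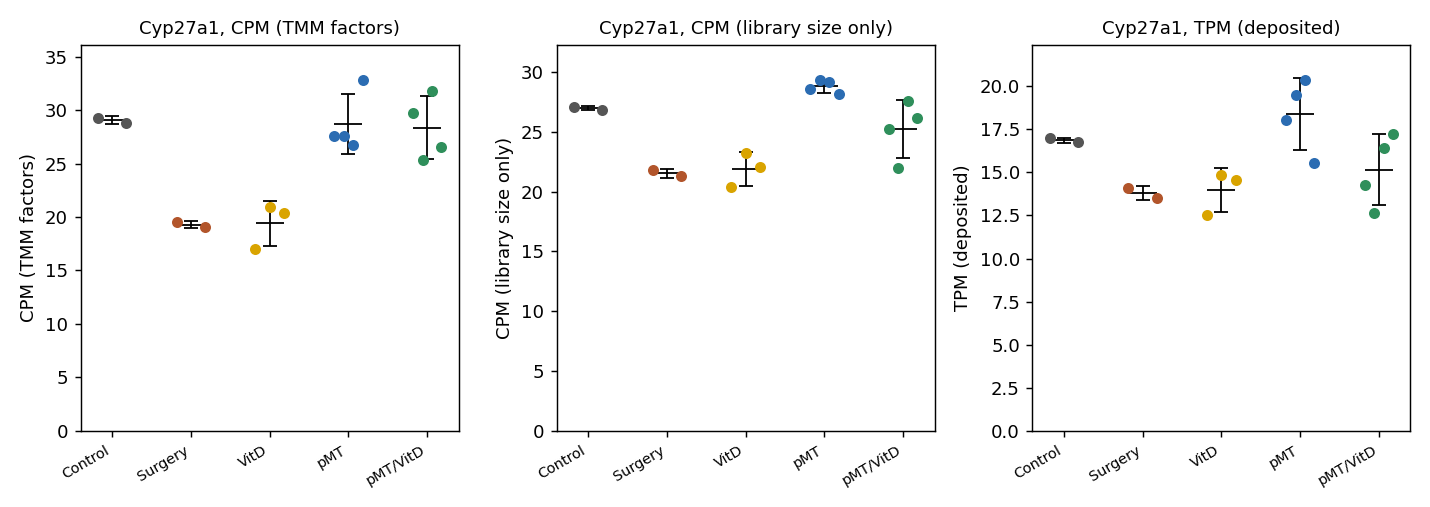
Cyp27a1 in each library on 3 linear scales from 0: CPM with TMM factors, CPM on library size only and deposited TPM, by group; points are libraries, horizontal bars group means and error bars 1 SD. Surgery and VitD are the lower groups on the left, at 17.0 to 20.9 CPM, while pMT/VitD overlaps VitD on the other 2 scales.

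The summed markers of macrophages, satellite cells, fibroblasts, adipocytes, endothelium and Schwann cells each had higher means in Surgery and VitD than in the other 3 groups. The macrophage markers, 6 of 6 detected with Aif1 as the most abundant, summed to 106 ± 1.91 TPM in Surgery (SD, n = 2) and 111 ± 14.3 TPM in VitD (SD, n = 3). Their sum was 48.9 ± 0.799 TPM in Control (SD, n = 2), 55.0 ± 14.7 TPM in pMT and 39.8 ± 12.6 TPM in pMT/VitD (SD, n = 4 each). By library it was 126, 109 and 98.0 TPM in VitD. With pMT it was 53.2, 63.1, 68.5 and 35.1 TPM, and with pMT/VitD 31.5, 29.7, 40.7 and 57.4 TPM. The satellite cell and myoblast markers, 4 of 4 detected with Myog as the most abundant, summed to 70.6 ± 2.04 TPM in Surgery (SD, n = 2), a mean of 73.3 TPM in VitD (n = 3, 63.8 to 88.1 TPM), 31.8 ± 2.83 TPM in Control (SD, n = 2), 40.2 ± 4.89 TPM in pMT and 32.1 ± 2.74 TPM in pMT/VitD (SD, n = 4 each). The fibroblast markers averaged 1050 TPM in Surgery, 1180 TPM in VitD, 722 TPM in Control, 822 TPM in pMT and 571 TPM in pMT/VitD. In the same order the adipocyte means were 18.8, 21.2, 15.1, 18.5 and 16.9 TPM, the endothelial means 110, 114, 79.5, 100 and 69.5 TPM and the Schwann cell means 54.9, 52.6, 40.7, 48.2 and 36.4 TPM, and in these 3 lists some pMT libraries exceeded libraries of Surgery or VitD. The adipocyte sum was 29.99 TPM in VitD replicate 1 and 18.63 TPM in VitD replicate 2, while VitD replicate 3 lay below both Control libraries. For the same markers pMT/VitD replicate 2, at 21.56 TPM, exceeded both Surgery libraries and VitD replicates 2 and 3. The higher adipocyte mean of VitD thus did not hold library by library. The part of all these cell markers in the Cyp27a1 and Rxrg results was not tested. The 13 mitochondrially encoded protein genes drew 14.5% and 15.6% of counts in Control and 10.7% and 11.2% in Surgery. Their share was 10.9% to 13% in VitD, 12.9%, 11.7%, 11.1% and 22.6% with pMT and 17.7%, 13.5%, 16.5% and 11.5% with pMT/VitD, and its part was not tested either. In bulk tissue, fewer cells that carry a transcript and less of that transcript per cell cannot be told apart.

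Cyp2r1 (gene 361631), the main 25-hydroxylase of liver, was counted 11 to 31 times per library. Its counts were 27, 31 and 21 in the VitD libraries and 24 and 15 in the Surgery libraries, and those groups overlapped on the CPM scale. The log2 fold change was 0.42 in VitD against surgery (95% interval -0.57 to 1.42) and 0.17 in pMT/VitD against pMT (95% interval -0.64 to 0.98). Without each library in turn these values ranged from 0.16 to 0.75 and from 0.0076 to 0.25. In VitD against pMT Cyp2r1 was at 0.57 (95% interval -0.265 to 1.4, adjusted p = 0.409 in the quasi-likelihood test). On the CPM scale with TMM factors every VitD library lay above every pMT library, while as TPM the groups overlapped. There limma voom called it as higher, beside 8538 of 17201 genes. The adjusted p ran from 0.0115 to 0.489 over the 11 alternatives. The value ranged from 0.34 to 0.71 without each library in turn.

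Cyp27b1 (gene 114700), the enzyme of the final activating step, had 54 counts in all 15 libraries together. It was counted 0 and 4 times in the Control libraries, 0 times in both Surgery libraries, 6, 5 and 4 times in the VitD libraries, 0, 6, 6 and 6 times in the pMT libraries and 4, 0, 10 and 3 times in the pMT/VitD libraries. A count of 0 thus occurred in 5 of the 15 libraries, in every group but VitD. The 7 operated libraries with VitD averaged 0.0793 ± 0.0659 CPM and the 6 without it 0.0451 ± 0.0507 CPM (SD), a difference of 0.0342 CPM with p = 0.347 in a two-sided exact permutation test over 1716 reassignments. That test pools libraries with and without pMT. In the quasi-likelihood fit without the filter, Cyp27b1 had a log2 fold change of 5.12 in VitD against surgery, where both Surgery counts were 0, and 2.75 for the average VitD effect. It was also at 5.16 in pMT against surgery, which holds no VitD, and at 0.38 in pMT/VitD against pMT. In that fit 1 of 7 members had an unadjusted p under 0.05 in VitD against surgery, beside 240 of 24728 genes. For the average effect it was also 1, beside 469 of 24728 genes, and 0 members passed after adjustment.

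Cyp24a1 (gene 25279), the enzyme that inactivates calcitriol and a classical target of the receptor, had 0 counts in all 15 libraries, including the 3 VitD and 4 pMT/VitD libraries. The transport genes Gc (gene 24384), which encodes the vitamin D binding protein of plasma, and Lrp2 (gene 29216), which encodes the uptake receptor megalin, also had 0 counts in all 15. A count of 0 allows up to 3 counts of the total, which is 0.0408 to 0.0573 CPM per library, 0.00703 CPM over the 7 libraries with VitD and 0.00314 CPM over all 15. These limits cover counting error only and apply to the time of harvest. Of all genes, 34.9% had 0 counts in every library. Liver markers summed to at most 0.354 TPM in any library, with Apoa1 as the most abundant of the 5 detected. Of the 4 kidney markers only Slc5a2 had counts, and Slc34a1, Umod and Aqp2 were at 0.

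**Figure D3:**
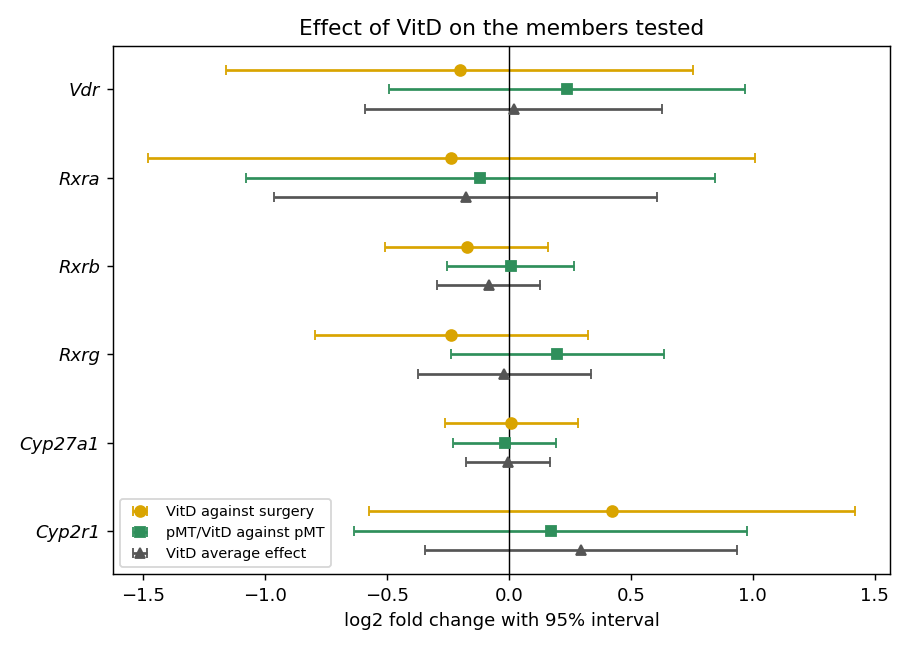
Log2 fold change of each tested member for VitD against surgery, pMT/VitD against pMT and the average VitD effect; markers are estimates and bars 95% intervals from the quasi-likelihood fit to all 15 libraries. Every interval spans 0, with the narrowest for Cyp27a1 (-0.18 to 0.17 for the average effect).

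Genes around the pathway were taken from 3 lists. The vitamin D targets, genes known to respond to the receptor in some tissue, numbered 27, of which 6 had 0 counts in every library (Trpv6, Trpv5, Slc34a1, S100g, Pth and Cyp24a1) and 16 were tested. In VitD against surgery 0 of the 16 passed in the quasi-likelihood test, and 0 had an unadjusted p under 0.05, beside 139 of 17201 genes. Their median log2 fold change was 0.090 beside 0.00186 for all genes. Nor did any pass in pMT/VitD against pMT, with a median of -0.046 beside -0.023 for all genes. There 2 of the 16 had an unadjusted p under 0.05, beside 1737 of 17201 genes. The most abundant were Txnip, a redox regulator, at 506 TPM on average, and Cdkn1a, a cell cycle inhibitor, at 20.9 TPM. Cdkn1a was 54.8 ± 1.09 CPM in Surgery (SD, n = 2) and 65.3 ± 42.8 CPM in VitD (SD, n = 3), against 8.92 ± 0.434 CPM in Control (SD, n = 2), 11.3 ± 1.67 CPM in pMT and 11.4 ± 2.76 CPM in pMT/VitD (SD, n = 4 each). In VitD against surgery its log2 fold change was 0.25 (95% interval -0.55 to 1.05).

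The vitamin D accessory list holds receptor cofactors, electron donors of the P450 enzymes and uptake partners, with 16 genes of which 15 were tested. In VitD against surgery and in pMT/VitD against pMT 0 of 15 passed in the quasi-likelihood test. In both, 0 of 15 had an unadjusted p under 0.05, beside 139 and 1737 of 17201 genes. The medians were -0.049 and -0.10 beside 0.00186 and -0.023 for all genes. The most abundant were Pdia3, a protein disulfide isomerase also described as a membrane binder of calcitriol, at 79.8 TPM on average, and Fdx1, the ferredoxin that passes electrons to Cyp27a1, at 38.9 TPM. For pMT/VitD against VitD 21.9% of all genes were called, 1662 higher and 2104 lower. There 1 of the 15 accessory genes was higher and 1 lower. The counts were 0 higher and 3 lower of 16 targets, and 4 higher and 1 lower of 12 other partners of the retinoid X receptors. The accessory genes were Fdx1 at 0.72 (adjusted p = 0.0115) and Pdia3 at -0.62 (adjusted p = 0.00524, both from the quasi-likelihood test).

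Of 15 other nuclear receptors that pair with retinoid X receptors, 12 were tested. In VitD against surgery and in pMT/VitD against pMT 0 passed the quasi-likelihood test, with medians of -0.083 and -0.049. At an unadjusted p under 0.05 there was 1 in each, beside 139 and 1737 of 17201 genes. The most abundant were Nr4a1, an activity-induced receptor, at 61.5 TPM on average, and Nr1h2, a sterol-sensing receptor, at 29.8 TPM. Without replicate 4 of both groups, pMT/VitD against pMT called 3 of 16 targets, all lower (Slc8a1, Thbd and Cldn12), 2 higher and 5 lower of 15 accessory genes, and 2 of 12 partners, both lower (Nr4a1 and Rara), where 18.3% of all genes were called. Slc8a1, Thbd, Cldn12 and Rara were named after their values were seen.

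As a description over the 15 libraries, which share group differences and scaling, log2 CPM of Vdr followed Rxrb (r = 0.877) and Rxra (r = 0.817), and Cyp27a1 followed Rxrg (r = 0.807). For Cyp2r1, counted 11 to 31 times per library, r with the other tested members was between -0.161 and -0.443. The genes with the most similar pattern to Vdr were Ccdc86, RGD1563601 and Cdnf (r = 0.94, 0.93 and 0.93). For Rxra they were Sema4d, Sort1 and Eml1 (r = 0.989, 0.984 and 0.983), and for Rxrb they were Mllt6, Usp19 and Plin4 (r = 0.970, 0.970 and 0.961). For Rxrg they were Neurl1, Kcnj11 and Ubxn10 (r = 0.988, 0.988 and 0.987), and for Cyp27a1 they were Thnsl2, Pnpla7 and Nsun4 (r = 0.964, 0.960 and 0.959). All were taken from tested genes that averaged 1 or more on the log2 CPM scale.

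The promoters of Cyp27a1 and Rxrg are printed because these 2 members passed together in pMT/VitD against VitD, a choice made after their values were seen. Both come from RefSeq on the GRCr8 build, where 9 of the 10 members had an entry. Each covers 300 bases on the + strand, at chr9:83713282-83713581 for Cyp27a1 and chr13:82276237-82276536 for Rxrg. Capitals mark nuclear receptor half-sites, searched on both strands as AGGTCA or AGTTCA or GGTTCA or GGGTCA.
Cyp27a1: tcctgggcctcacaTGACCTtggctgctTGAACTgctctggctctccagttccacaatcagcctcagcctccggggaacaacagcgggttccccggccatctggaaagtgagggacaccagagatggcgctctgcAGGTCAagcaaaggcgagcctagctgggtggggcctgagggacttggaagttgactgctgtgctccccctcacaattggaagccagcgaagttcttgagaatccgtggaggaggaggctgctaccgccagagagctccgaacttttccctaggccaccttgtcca
Rxrg: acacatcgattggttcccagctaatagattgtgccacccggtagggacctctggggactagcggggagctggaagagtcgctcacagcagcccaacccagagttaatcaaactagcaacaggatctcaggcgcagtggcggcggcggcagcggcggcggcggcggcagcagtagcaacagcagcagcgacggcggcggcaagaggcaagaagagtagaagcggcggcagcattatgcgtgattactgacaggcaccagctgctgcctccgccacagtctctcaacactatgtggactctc
The Cyp27a1 promoter held 3 matches and the Rxrg promoter 0. Among the other members with an entry, Cyp27b1 and Cyp2r1 held 2 matches each, Vdr 1, and Rxra, Rxrb, Gc and Lrp2 0. Of 33469 promoters of this length, 44.4% held at least 1 match, 13.5% at least 2 and 3.38% at least 3. Receptor binding at these matches was not tested.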

How the data were processed

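Total RNA of 15 multifidus libraries was sequenced. Per the submitters' processing notes, reads were trimmed with Trimmomatic 0.38, aligned to rn6 with HISAT2 2.1.0, sorted with SAMtools 1.9 and quantified with StringTie 2.1.3b. The authors deposited read counts per gene without normalization. They also deposited TPM values, used for levels between genes, and FPKM values, not used here. Handling of strand and multi-mapping reads is not given in the sources used here. Groups came from the labels.

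Counts were tested in R 4.3.3 with edgeR 4.0.16 (TMM factors, filterByExpr, robust quasi-likelihood fit to all 15 libraries, Benjamini-Hochberg adjustment over 17201 genes, threshold 0.05), after a test on simulated data. Intervals are 95%. Log2 CPM used a prior count of 2. Members below the filter were compared by exact permutation. Totals ranged from 52342134 to 73557878, and 3 counts set the floor for a count of 0.

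Of 12 comparisons, 3 were added after seeing the data. Alternatives were RLE factors, library size only, DESeq2 1.42.0, limma 3.58.1 voom with quality weights, exactTest, only the groups compared, other filters (none, or at least 10 counts in every library), a replicate block, a gene length correction (loess span 0.3), replicate 4 of pMT and of pMT/VitD left out, and each library left out in turn. All 10 members are named. From each of 3 lists the 2 most abundant genes by TPM are named, plus genes called for VitD, and the 3 genes with the highest Pearson r for Vdr and for each member that averaged 0 or more on the log2 CPM scale. The members and lists were chosen with earlier results of these data known.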

Additional observations from a re-analysis of the deposited data

Results flagged for a closer look

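In the groups of 4 libraries, 14 sets of member values were examined for a library far from the others, and 3 values stood out, where chance gives about 0.7. Rxra in pMT/VitD replicate 4 was 42.8 CPM, while the rest of that group spanned 13.5 to 16.7 CPM. Cyp27a1 in pMT replicate 4 was 32.9 CPM, while the rest of its group spanned 26.7 to 27.6 CPM. In that library the 13 mitochondrially encoded protein genes drew 22.6% of counts, against 11.1% to 12.9% in the rest of its group. Cyp2r1 in pMT replicate 3 was 0.152 CPM, from 11 counts, while the others there spanned 0.256 to 0.27 CPM. The test of whether the VitD effect differed with pMT called 0 of the 6 tested members, beside 0 of 17201 genes, 0 of 6 beside 325 of 17182 genes without replicate 4 of pMT and of pMT/VitD, and 0 of 6 beside 5393 of 17201 genes in limma voom.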

How the results depend on the processing

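The number of members called moved by more than 1.5 times, or to or from 0, in 40 of 216 cases. With limma voom with quality weights the count was 1 in pMT/VitD against pMT (from 0, beside 6595 of 17201 genes), 4 in VitD against control (from 1, beside 6436 of 17201 genes), 2 in pMT/VitD against surgery (from 1, beside 6777 of 17201 genes), 6 in VitD against pMT (from 1, beside 8538 of 17201 genes), 2 in surgery against control (from 0, beside 4902 of 17201 genes), 3 in pMT against surgery (from 1, beside 6457 of 17201 genes). With library size only the count was 0 in VitD against control (from 1, beside 2795 of 17201 genes), 0 in pMT/VitD against surgery (from 1, beside 3248 of 17201 genes), 0 in pMT against surgery (from 1, beside 337 of 17201 genes), 0 in pMT/VitD against VitD (from 2, beside 5758 of 17201 genes). With DESeq2 the count was 2 in VitD against control (from 1, beside 2471 of 17201 genes), 2 in VitD against pMT (from 1, beside 2213 of 17201 genes), 1 in surgery against control (from 0, beside 1001 of 17201 genes). With only the groups compared the count was 0 in VitD against control (from 1, beside 96 of 16594 genes), 2 in pMT/VitD against surgery (from 1, beside 836 of 16317 genes), 3 in surgery against control (from 0, beside 5289 of 16316 genes), 2 in pMT against surgery (from 1, beside 520 of 16609 genes), 1 in pMT/VitD against VitD (from 2, beside 1816 of 16142 genes). With the gene length trend removed the count was 2 in VitD against control (from 1, beside 2366 of 17201 genes), 2 in VitD against pMT (from 1, beside 2184 of 17201 genes), 1 in surgery against control (from 0, beside 498 of 17201 genes). With exactTest on the groups compared the count was 2 in pMT/VitD against surgery (from 1, beside 1763 of 16317 genes), 3 in surgery against control (from 0, beside 5923 of 16316 genes), 2 in pMT against surgery (from 1, beside 1180 of 16609 genes). With the replicate number as a block the count was 0 in pMT/VitD against surgery (from 1, beside 350 of 17201 genes), 0 in pMT against surgery (from 1, beside 78 of 17201 genes). With at least 10 counts in every library the count was 1 in surgery against control (from 0, beside 321 of 14306 genes). With replicate 4 of pMT and of pMT/VitD left out the count was 1 in surgery against control (from 0, beside 725 of 17182 genes). With each library left out in turn it ranged over 0 to 2 in VitD against control (13 to 2396 of all genes), 0 to 1 in pMT/VitD against surgery (122 to 2199), 1 to 2 in VitD against pMT (498 to 2091), 0 to 1 in pMT against surgery (27 to 290). Where that leaves a group with 1 library, the lone library is assumed to vary like the other groups.

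Of 1296 log2 fold changes of members under alternatives, 1130 kept their sign and their side of the threshold, 38 kept the sign and newly passed, 18 kept the sign and no longer passed, and 110 changed sign. None of those 110 was called in either fit (0 and 0). The cause of the changes was not tested. Values for members that changed sign follow, as log2 fold changes. With the replicate number as a block they were in VitD against surgery Cyp27a1 -0.021, in VitD average effect Vdr -0.059, in VitD interaction Cyp27a1 0.0060, in pMT/VitD against control Rxrb -0.0054, Rxrg -0.023, in pMT against control Rxrb -0.018. With limma voom with quality weights they were in pMT/VitD against pMT Vdr -0.10, Rxrb -0.099, Cyp27a1 0.032, in VitD average effect Vdr -0.089, Rxrg 0.055, Cyp27a1 0.069, in VitD interaction Vdr -0.028, Rxra -0.75, in pMT/VitD against control Vdr -0.14, Rxrb -0.020, in pMT/VitD against surgery Rxra -0.11, Cyp2r1 -0.014, in pMT/VitD against VitD Rxra -0.075. With replicate 4 of pMT and of pMT/VitD left out they were in pMT/VitD against pMT Vdr -0.17, Rxrb -0.12, Cyp27a1 0.090, in VitD average effect Vdr -0.19, Cyp27a1 0.050, in VitD interaction Rxra -0.67, Cyp27a1 0.080, in pMT/VitD against control Vdr -0.056, Cyp27a1 0.016, in pMT/VitD against surgery Rxra -0.17, Cyp2r1 -0.074, in pMT against control Vdr 0.11. With library size only they were in pMT/VitD against pMT Rxrb -0.18, in VitD average effect Vdr -0.078, in VitD interaction Rxra -0.064, Rxrb -0.017, in VitD against control Rxrb 0.017, in pMT/VitD against control Rxrb -0.0076, Rxrg -0.0026, in pMT/VitD against surgery Rxrb -0.19, Cyp2r1 -0.29, in surgery against control Rxrb 0.18, Cyp2r1 0.032, in pMT against surgery Rxrb -0.0073, in pMT against control Vdr 0.038, Cyp27a1 0.095, in pMT/VitD against VitD Rxrb -0.024. With no filter they were in pMT/VitD against pMT Rxrb -0.00080. With RLE size factors they were in pMT/VitD against pMT Cyp27a1 0.0015, in VitD average effect Cyp27a1 0.0052. With DESeq2 they were in pMT/VitD against pMT Cyp27a1 0.0017, in VitD average effect Cyp27a1 0.0051. With the gene length trend removed they were in pMT/VitD against pMT Cyp27a1 0.0021, in VitD average effect Cyp27a1 0.013. With at least 10 counts in every library they were in VitD average effect Cyp27a1 0.00074.

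Leaving out each library in turn, the members whose sign changed had these ranges. In VitD against surgery they were Vdr -0.46 to 0.072, Rxra -0.56 to 0.12, Rxrg -0.53 to 0.085, Cyp27a1 -0.046 to 0.097. In pMT/VitD against pMT they were Rxra -0.65 to 0.19, Rxrb -0.072 to 0.061, Cyp27a1 -0.076 to 0.055. In VitD average effect they were Vdr -0.11 to 0.16, Rxra -0.44 to 0.0020, Rxrg -0.16 to 0.14, Cyp27a1 -0.033 to 0.041. In VitD interaction they were Rxra -0.41 to 0.44, Cyp27a1 -0.11 to 0.045, Cyp2r1 -0.58 to 0.013. In VitD against control they were Cyp2r1 -0.32 to 0.99. In pMT/VitD against control they were Vdr -0.055 to 0.31, Rxrb -0.021 to 0.11, Rxrg -0.0014 to 0.11, Cyp27a1 -0.095 to 0.016, Cyp2r1 -0.72 to 0.59. In pMT/VitD against surgery they were Rxra -0.17 to 0.55, Cyp2r1 -0.24 to 0.36. In surgery against control they were Cyp2r1 -0.75 to 0.57. In pMT against surgery they were Cyp2r1 -0.41 to 0.19. In pMT against control they were Vdr -0.22 to 0.099, Rxrb -0.028 to 0.12, Cyp27a1 -0.090 to 0.014, Cyp2r1 -0.89 to 0.42.

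No pairing by replicate number was seen in deviations from group means. The 24 pairs with the same number had a median correlation of deviations of 0.01 (-0.499 to 0.169). For the 64 others it was -0.004 (-0.287 to 0.431). In Control and Surgery the deviations of the libraries mirror each other by construction, so this check cannot exclude a pairing or a shared batch. With the replicate number as a block, 0 members were called in pMT/VitD against surgery and 0 in pMT against surgery, and no other count of called members changed. Calls among all genes fell, as from 3766 to 2705 in pMT/VitD against VitD and from 266 to 106 in surgery against control. The order of the 7 detected members by level was the same with TMM-scaled CPM per relative length. That length was derived from the deposited counts and TPM, so the order is not a separate check. For Cyp27b1 library size only gave a difference of 0.0325 CPM (exact permutation p = 0.319). With library size only, genes called in VitD against control were 2660 higher and 135 lower, beside 942 and 550 with TMM, and in pMT/VitD against surgery 98 and 3150, beside 413 and 866. For pMT/VitD against VitD they were 393 higher and 5365 lower, beside 1662 and 2104 with TMM. Vdr, Cyp2r1 and Cyp27b1 had no more than 46, 31 and 10 counts in any library.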
